A study of Homo sapiens with 6 samples.

Results

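The aminoacyl-tRNA synthetases described here are 36 genes, taken by symbol from a table of 29982 gene symbols: 20 whose symbol has no 2 at the end, which encode cytosolic enzymes, and 16 whose symbol ends in 2, which encode mitochondrial enzymes. All 36 were among the 13287 genes with a mean of at least 1 FPKM, a level per transcript length and per mapped read, over the 6 libraries. RNA was measured in OVCAR5, an established ovarian cancer cell line, in 2 libraries of vehicle-treated (DMSO) cells, 2 libraries of cells exposed to 10 μM SpiD7 for 2 h, and 1 library each after 6 h and 12 h. SpiD7 is a spirocyclic dimer made to react with cysteines on protein surfaces, and the study asked whether it sets off the unfolded protein response. The labels give no duration for the vehicle, and they do not say whether the replicates were separate cultures, so that p-values measure only the spread between these libraries. Every library came from the same line, so that the values describe 1 cancer line at 1 dose.

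Each synthetase joins an amino acid to the tRNAs that read its codons, the step at which the genetic code is enforced. The cytosol and the mitochondrion have separate sets of these enzymes, all encoded in the nucleus, and most amino acids have a gene for each. GARS (glycine) and KARS (lysine) are exceptions, since each gene supplies both compartments. Some cytosolic enzymes are held in a multisynthetase complex on the scaffold proteins AIMP1, AIMP2 and EEF1E1, and by the fold of the catalytic site the enzymes fall into class I and class II. Under endoplasmic reticulum stress or amino acid shortage, phosphorylation of eIF2α lets the transcription factor ATF4 be translated, and cytosolic synthetase genes are known as a group of ATF4 targets, reached through C/EBP-ATF response elements near the start of the gene.

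The second DMSO and the second 2 h library were recovered from columns that held group means, a reading that rests on the values, and they stood apart from the first libraries. The median log2 difference of second minus first DMSO library was -0.38 over the cytosolic genes and -0.28 over the mitochondrial genes, against -0.06 over all genes. It was lower in the second library for 17 of 20 cytosolic and 12 of 16 mitochondrial genes. At 2 h the same difference was -0.35 and -0.25. Of all FPKM summed in a library, values under the symbol MIR6723 made up 9.19% and 25.0% (DMSO), 8.65% and 21.8% (2 h), 5.04% (6 h) and 6.93% (12 h). The RNA behind these values and their part in the results were not tested. Relative to the first DMSO library, depth read from the value of 1 read was 0.769 to 1.11. The epithelial markers EPCAM, KRT8, KRT18, KRT19 and CDH1 summed to 2942 to 4230 FPKM with EPCAM at 77.4 to 86.5 FPKM. The leukocyte marker CD3E was listed at 0, PTPRC at up to 0.032 FPKM, the fibroblast marker DCN at up to 0.126 FPKM and the endothelial marker VWF at up to 0.086 FPKM. CD14 was at 3.10 to 9.36 FPKM, highest at 12 h. The fibroblast markers summed to 0.997 to 2.83 FPKM, with COL1A1 at 0.596 to 2.18 FPKM and COL3A1 at 0.224 to 0.524 FPKM. The endothelial markers summed to 0.441 to 11.5 FPKM, with PECAM1 at 0.320 to 10.7 FPKM and CDH5 at 0.054 to 0.725 FPKM. Both sums, COL1A1, PECAM1 and CDH5 were highest in the second DMSO and second 2 h libraries, and the part of these markers in the results was not tested. In a bulk library, fewer cells with a transcript and less transcript per cell cannot be told apart.

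The cytosolic and mitochondrial enzymes differed most after 6 h and 12 h of SpiD7. All log2 fold changes below are on the log2(FPKM + 0.1) scale against the mean of both DMSO libraries, unless another comparison is named. At 6 h the median was 0.37 for cytosolic genes (1.29-fold), -0.09 for mitochondrial genes and 0.03 for all 13287 genes. At 12 h the medians were 0.14, -0.25 and -0.05. At 2 h they were 0.02, -0.07 and -0.01, and the cytosolic median was -0.03 and -0.02 under the other scalings. The 6 h and 12 h values come from 1 library each and have no replicate check, and both are set against the same DMSO libraries.

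At 6 h, 16 of 20 cytosolic genes lay above both DMSO libraries, against 31.6% of all genes, and only QARS lay below both, against 29.2%. Of the 16 mitochondrial genes, 3 lay above both (18.8%) and 6 below both (37.5%), against the same shares of all genes. At 12 h, 7 cytosolic genes lay above both DMSO libraries and 4 below, against 30.1% and 35.6% of all genes, so that the cytosolic share above was near the background at that time. Mitochondrial genes numbered 2 above (12.5%) and 7 below (43.8%) at 12 h. The mitochondrial share below was thus not far from that of all genes at either time. Under median-ratio scaling 13 cytosolic genes lay above both DMSO libraries at 6 h, with 26.5% of all genes. The mitochondrial split was then 2 above and 8 below, with 33.6% of all genes below.

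These counts and medians depended on which DMSO library was used. Against the first DMSO library alone the cytosolic median was 0.14 at 6 h and -0.12 at 12 h, and the mitochondrial median was -0.19 and -0.47. Against the second it was 0.53 and 0.31 for cytosolic genes and 0.05 and -0.00 for mitochondrial genes. The cytosolic median was higher than the mitochondrial median with either control at both times. In the share of MIR6723, 5.04% at 6 h and 6.93% at 12 h were nearer the first DMSO library (9.19%) than the second (25.0%). The same held for PECAM1, at 0.320 and 0.942 FPKM against 0.736 and 10.7 FPKM. COL1A1 was mixed, at 1.19 and 1.70 FPKM against 0.596 and 2.18 FPKM. Which DMSO library is the closer control was not tested.

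**Figure D1:**
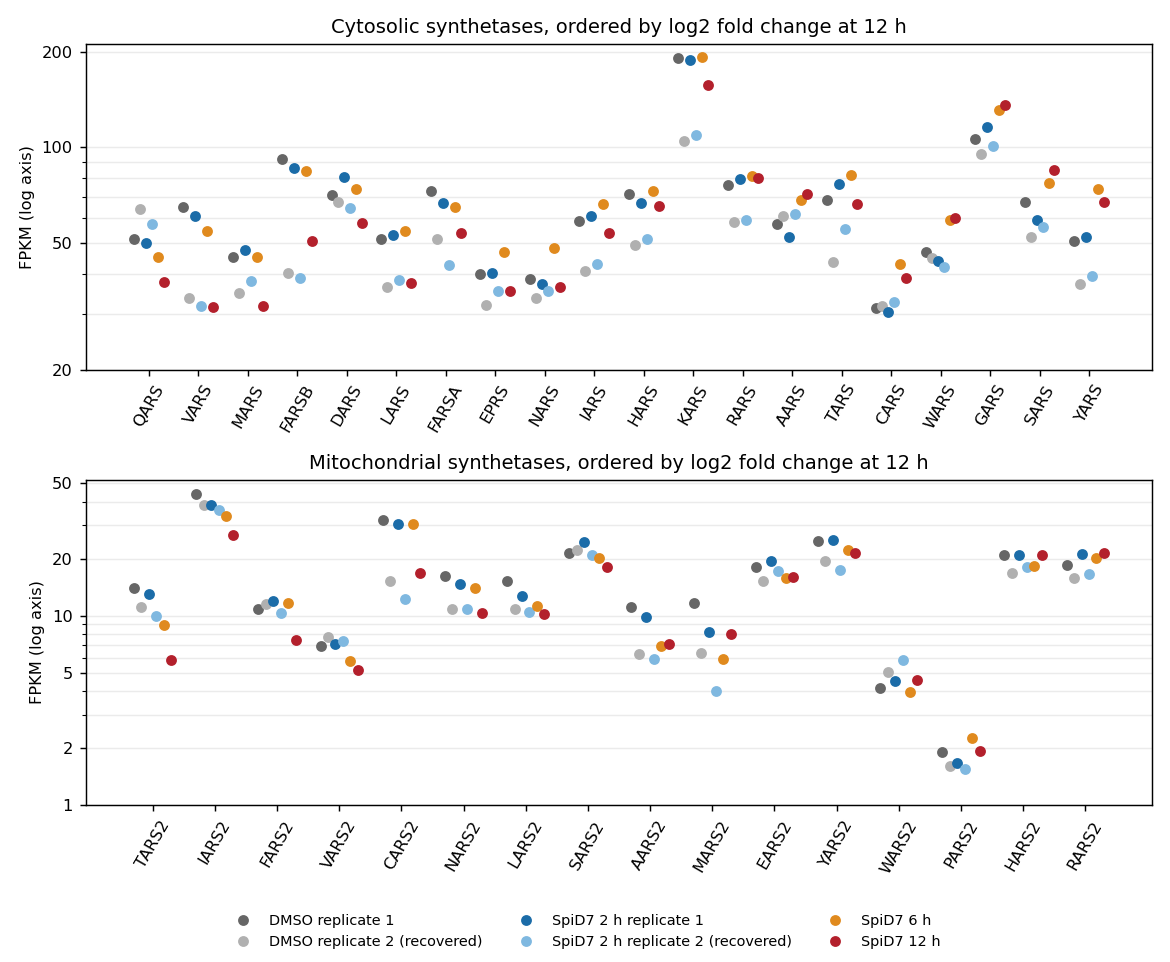
FPKM (log axis) of each cytosolic (upper panel) and mitochondrial (lower panel) synthetase in the 6 libraries, 1 point per library, with genes ordered by the log2 fold change at 12 h. For most cytosolic genes the 6 h point lies above both grey DMSO points, and for TARS2 and IARS2 the 6 h and 12 h points lie below them.

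The ratio between the classes varied little between replicates. Summed FPKM of the 20 cytosolic genes divided by that of the 16 mitochondrial genes was 4.97 and 4.72 under DMSO, 5.11 and 5.03 after 2 h of SpiD7, 6.32 after 6 h and 6.20 after 12 h. All 4 SpiD7 libraries thus lay above both DMSO libraries, and the 6 h and 12 h ratios were also above both 2 h ratios. On the log2 scale the ratio was higher by 0.07 (2 h), 0.38 (6 h) and 0.36 (12 h). The 2 h change, 0.066, was smaller than the distance between the DMSO libraries, which were at 2.313 and 2.238. Without GARS and KARS, which serve both compartments, the changes were 0.06, 0.36 and 0.31. The sums themselves were 1353 and 1012 FPKM (cytosolic) and 272 and 215 FPKM (mitochondrial) in DMSO. At 6 h they were 1466 and 232 FPKM, and at 12 h 1252 and 202 FPKM. The 12 h cytosolic sum thus lay between the DMSO sums while the mitochondrial sum lay below both.

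**Figure D2:**
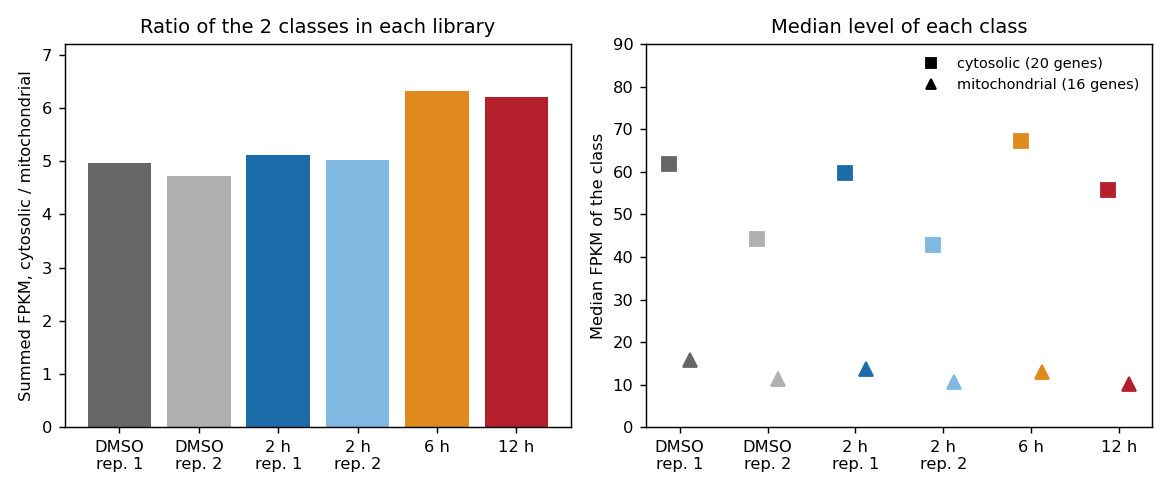
Left, summed FPKM of 20 cytosolic over 16 mitochondrial synthetases in each library, as bars from 0. Right, median FPKM of each class in each library (squares cytosolic, triangles mitochondrial); the ratio is 4.72 to 5.11 in the DMSO and 2 h libraries and 6.32 and 6.20 at 6 h and 12 h.

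The core of the C/EBP-ATF response element was looked for near the starts of these genes, because the cytosolic genes were mostly higher together at 6 h. The letters TGATGNAA were searched on both strands of RefSeq promoter windows (GRCh38.p14, from 250 bases before to 50 bases after the start). They were found in 7 of 16 cytosolic genes with a window (43.8%), in 1 of 14 mitochondrial genes (7.14%) and in 1217 of 27305 genes (4.46%). Counted by window, the shares were 33.3%, 5.56% and 3.62%. The match is printed below in capitals within its surroundings, 5′ to 3′ on the strand of the gene; a match on the opposite strand is read in reverse complement. DARS, LARS, VARS, YARS, AARS2 and VARS2 had no entry.

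AARS (alanine), chr16:70289660-70289739, minus strand: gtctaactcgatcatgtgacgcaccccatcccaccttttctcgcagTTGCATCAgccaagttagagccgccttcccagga
CARS (cysteine), chr11:3057407-3057436, minus strand: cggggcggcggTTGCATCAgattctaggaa
GARS (glycine), chr7:30594834-30594863, plus strand: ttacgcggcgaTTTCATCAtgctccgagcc
IARS (isoleucine), chr9:92293692-92293721, minus strand: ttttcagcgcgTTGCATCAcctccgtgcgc
MARS (methionine), chr12:57488053-57488082, plus strand: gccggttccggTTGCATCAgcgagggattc
NARS (asparagine), chr18:57621804-57621833, minus strand: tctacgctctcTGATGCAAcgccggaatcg
TARS (threonine), chr5:33440956-33440985, plus strand: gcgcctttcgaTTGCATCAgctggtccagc
YARS2 (mitochondrial, tyrosine), chr12:32756061-32756140, minus strand: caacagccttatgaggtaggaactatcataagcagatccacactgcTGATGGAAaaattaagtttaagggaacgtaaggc

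In 6 of the 7 cytosolic genes the match read TGATGCAA, while GARS read TGATGAAA and YARS2 TGATGGAA. Its first base lay 33 bases before the start in GARS, 13 in IARS, 4 in MARS and 2 in CARS, at position 3 of the transcript in TARS and 15 in NARS. The matches of AARS and YARS2 lay farther out, 187 and 197 bases before the start. At 6 h the median log2 fold change of the 7 cytosolic genes with a match was 0.42 (range 0.19 to 0.59), and the 9 with a window and no match had 0.36 (range -0.34 to 0.47). At 12 h the medians were 0.27 and 0.14. The ranges overlapped, and SARS and WARS, without a match, were at 0.39 and 0.36 at 6 h. A match is a description of letters, not of binding.

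Among the cytosolic enzymes, YARS, SARS and GARS had the highest log2 fold changes at 12 h. YARS (tyrosyl-tRNA synthetase, chr1:32775237-32818153, minus strand) was at 50.8 and 37.3 FPKM in DMSO, 52.3 and 39.4 FPKM at 2 h, 74.1 FPKM at 6 h and 67.1 FPKM at 12 h. The 2 h libraries followed the DMSO library of the same number, and the later libraries were above all 4, with log2 fold changes of 0.77 at 6 h (1.70-fold) and 0.62 at 12 h (1.54-fold). SARS (seryl-tRNA synthetase, which also charges the selenocysteine tRNA; chr1:109213918-109238169, plus strand) was at 67.2 and 52.2 FPKM in DMSO, 58.9 and 56.2 FPKM at 2 h, 77.5 FPKM at 6 h and 85.1 FPKM at 12 h. Its 6 h and 12 h values were again above all others, by 0.39 and 0.52 on the log2 scale.

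GARS (chr7:30594681-30634033, plus strand), the glycine enzyme of both compartments, was at 106 and 95.4 FPKM in DMSO, 116 and 101 FPKM at 2 h, 131 FPKM at 6 h and 136 FPKM at 12 h. The DMSO and 2 h libraries overlapped, and the later libraries were the highest, with log2 fold changes of 0.38 and 0.43. KARS (chr16:75627474-75648643, minus strand), the lysine enzyme of both compartments and a complex member, had the highest mean level per length of all 36 genes, 157 FPKM. It was at 192 and 104 FPKM in DMSO, 189 and 109 FPKM at 2 h, 193 FPKM at 6 h and 157 FPKM at 12 h. Here the log2 fold changes of 0.45 and 0.15 rested on the second DMSO library, because the 6 h value exceeded the first by 0.01 and the 12 h value lay below it by 0.29 on the log2 scale.

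TARS (threonyl-tRNA synthetase), singled out after its values were seen for its ratio to TARS2, was at 68.2 and 43.5 FPKM in DMSO, 76.9 and 55.3 FPKM at 2 h, 81.9 FPKM at 6 h and 66.3 FPKM at 12 h. Its 2 h values exceeded the DMSO library of the same number in both pairs, and 6 h was the highest library, with log2 fold changes of 0.26 (2 h), 0.59 (6 h) and 0.28 (12 h). WARS (tryptophan) was at 46.8 and 44.8 FPKM in DMSO, 43.8 and 42.0 FPKM at 2 h, 58.9 FPKM at 6 h and 60.1 FPKM at 12 h. It was the only cytosolic gene below both DMSO libraries in both 2 h libraries, against 8.1% of all genes, and no cytosolic gene lay above, against 13.7%. CARS was at 31.1 and 31.8 FPKM in DMSO, 42.9 FPKM at 6 h and 38.8 FPKM at 12 h. AARS was at 57.6 and 60.6 FPKM in DMSO, 68.4 FPKM at 6 h and 71.3 FPKM at 12 h. Both genes had DMSO libraries that lay close together and later libraries above them. RARS (arginine, complex) was at 76.2 and 58.2 FPKM in DMSO, 81.4 FPKM at 6 h and 79.8 FPKM at 12 h, also above both.

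EPRS (chr1:219968601-220046658, minus strand), a fusion of the glutamic acid and proline enzymes, was at 39.9 and 32.0 FPKM in DMSO, 40.3 and 35.3 FPKM at 2 h, 46.9 FPKM at 6 h and 35.2 FPKM at 12 h. It was highest at 6 h (log2 fold change 0.39) and between the DMSO libraries at 12 h (-0.02, above 0 under upper-quartile scaling). HARS (histidine, chr5:140673904-140691862, minus strand) was at 71.1 and 49.2 FPKM in DMSO, 66.7 and 51.4 FPKM at 2 h, 72.9 FPKM at 6 h and 65.3 FPKM at 12 h. Its 6 h value exceeded the first DMSO library by 0.04 on the log2 scale, and 12 h lay between the controls. The same pattern, above both DMSO libraries at 6 h and between them at 12 h, was seen for IARS, LARS and NARS, with log2 fold changes of 0.44, 0.33 and 0.42 at 6 h and 0.14, -0.21 and 0.01 at 12 h. FARSA and FARSB, the subunits of the phenylalanine enzyme, lay between the DMSO libraries at both times. FARSB was at 92.0 and 40.3 FPKM in DMSO, 84.2 FPKM at 6 h and 50.7 FPKM at 12 h and thus had controls that spanned both later libraries. FARSA was at 72.8 and 51.4 FPKM in DMSO, 64.7 FPKM at 6 h and 53.8 FPKM at 12 h.

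QARS, VARS and MARS had the lowest log2 fold changes of the cytosolic enzymes at 12 h. QARS (glutamine, complex; chr3:49095932-49105135, minus strand) was at 51.6 and 64.1 FPKM in DMSO, 50.2 and 57.2 FPKM at 2 h, 45.3 FPKM at 6 h and 37.7 FPKM at 12 h. It was below both DMSO libraries at both later times, by -0.34 and -0.61 on the log2 scale, and was the only cytosolic gene with a negative value at 6 h. VARS (valine; chr6:31777518-31795953, minus strand) was at 65.1 and 33.5 FPKM in DMSO, 60.6 and 31.7 FPKM at 2 h, 54.5 FPKM at 6 h and 31.4 FPKM at 12 h. Its 12 h log2 fold change of -0.57 rested on the first DMSO library, since against the second the log2 difference was -0.09.

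MARS (methionine, complex; chr12:57475445-57517569, plus strand) was at 45.1 and 34.8 FPKM in DMSO, 47.6 and 38.1 FPKM at 2 h, 45.3 FPKM at 6 h and 31.7 FPKM at 12 h. The 6 h value was level with the first DMSO library (log2 difference 0.01) and the 12 h value was the lowest. In GENCODE 29, 355 bases of MARS exons (5.05%) lie opposite exons of DDIT3, whose log2 fold change was 2.99 at 6 h and 2.29 at 12 h. The sources do not say that counting used strand, and the part of DDIT3 reads in the MARS values was not tested. DARS (aspartic acid, complex) was at 70.9 and 67.4 FPKM in DMSO, 80.4 and 64.5 FPKM at 2 h, 74.0 FPKM at 6 h and 57.6 FPKM at 12 h. Like MARS, it was above both DMSO libraries at 6 h and below both at 12 h.

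TARS2, the mitochondrial threonyl-tRNA synthetase (chr1:150487364-150507609, plus strand), was the only one of the 36 genes more than 2-fold from DMSO at any time. It was at 14.0 and 11.1 FPKM in DMSO, 13.0 and 9.99 FPKM at 2 h, 8.94 FPKM at 6 h and 5.88 FPKM at 12 h. The DMSO and 2 h libraries overlapped, 6 h was below all 4 of them and 12 h was the lowest, at 71.9% and 47.6% of DMSO. Values more than 2-fold lower made up 0.662% (2 h), 3.1% (6 h) and 3.76% (12 h) of all genes, and more than 2-fold higher values, which 0 of the 36 had, in 2.32%, 5.66% and 6.48%. Its 12 h log2 fold change was -1.07, and was -1.24 and -0.90 against the first and the second DMSO library.

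IARS2 and FARS2 had the next lowest 12 h values. IARS2 (isoleucine; chr1:220094102-220148041, plus strand) had the highest mean level of the mitochondrial enzymes. It was at 44.2 and 38.4 FPKM in DMSO, 38.5 and 36.2 FPKM at 2 h, 33.8 FPKM at 6 h and 26.8 FPKM at 12 h. Its values at 6 h and 12 h were below the DMSO and 2 h libraries, with log2 fold changes of -0.29 and -0.62. FARS2 (phenylalanine; chr6:5261044-5829192, plus strand) was at 10.9 and 11.5 FPKM in DMSO, 11.9 and 10.4 FPKM at 2 h, 11.7 FPKM at 6 h and 7.44 FPKM at 12 h. In contrast to TARS2 and IARS2, only its 12 h library was low (-0.58), and 6 h was just above both controls (0.06).

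SARS2 and VARS2 were also below both DMSO libraries at 6 h and 12 h. SARS2 (serine) had log2 fold changes of -0.11 and -0.27, and VARS2 (valine) of -0.33 and -0.48. Of the exon bases of SARS2, 46.2% are shared with the transcript AC011455.2 on its own strand, and 22.0% of those of VARS2 are shared with GTF2H4, whose log2 fold change was 0.10 and -0.22. The part of these overlaps in the values was not tested. LARS2 (leucine) was at 15.2 and 10.8 FPKM in DMSO and 10.2 FPKM at 12 h, and NARS2 (asparagine) at 16.3 and 10.9 FPKM in DMSO and 10.3 FPKM at 12 h. In both the 12 h value was below, and the 6 h value between, the controls.

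RARS2, HARS2 and PARS2 had the highest 12 h values of the mitochondrial enzymes. RARS2 (arginine; chr6:87514378-87590003, minus strand) was at 18.5 and 15.7 FPKM in DMSO, 21.2 and 16.7 FPKM at 2 h, 20.3 FPKM at 6 h and 21.4 FPKM at 12 h. It was above both DMSO libraries at 6 h and 12 h (0.25 and 0.33 on the log2 scale), but the first 2 h library was above the 6 h value and close to the 12 h value. HARS2 (histidine; chr5:140691426-140699318, plus strand) was at 21.0 and 16.8 FPKM in DMSO, 21.0 and 18.1 FPKM at 2 h, 18.4 FPKM at 6 h and 20.9 FPKM at 12 h. No library of it lay outside the controls by more than their spread. HARS and HARS2 start back to back, with 84 bases between their RefSeq starts on chromosome 5, and the table gives both the same locus. Of the exon bases of HARS2, 11.7% are shared with HARS. At 6 h the pair differed, 0.30 for HARS and -0.03 for HARS2, and at 12 h it was level, 0.14 and 0.15.

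PARS2 (proline; chr1:54756898-54764514, minus strand) had the lowest level of the 36 genes. It was at 1.90 and 1.62 FPKM in DMSO, 1.67 and 1.55 FPKM at 2 h, 2.26 FPKM at 6 h and 1.93 FPKM at 12 h. The 12 h value exceeded the first DMSO library by 0.02 on the log2 scale, and at this level few reads stand behind a value. MARS2 (methionine) was at 11.6 and 6.40 FPKM in DMSO, 8.26 and 4.01 FPKM at 2 h, 5.90 FPKM at 6 h and 8.03 FPKM at 12 h. It had the lowest log2 fold changes of all members at 2 h and 6 h (-0.57 and -0.54) and lay between the controls at 12 h. WARS2 (tryptophan) was at 4.14 and 5.03 FPKM in DMSO and 3.96 FPKM at 6 h, below both, and at 4.57 FPKM at 12 h, between them.

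The other 4 mitochondrial genes, AARS2 (alanine), CARS2 (cysteine), EARS2 (glutamic acid) and YARS2 (tyrosine), lay between the DMSO libraries at 6 h and 12 h. CARS2 showed the widest controls of the class, 32.0 and 15.3 FPKM, with 30.4 FPKM at 6 h and 16.7 FPKM at 12 h. The level of YARS2 was 24.8 and 19.4 FPKM in DMSO, 22.3 FPKM at 6 h and 21.4 FPKM at 12 h, and the sign of its small log2 fold changes (0.02 and -0.04) depended on the scaling.

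**Figure D3:**
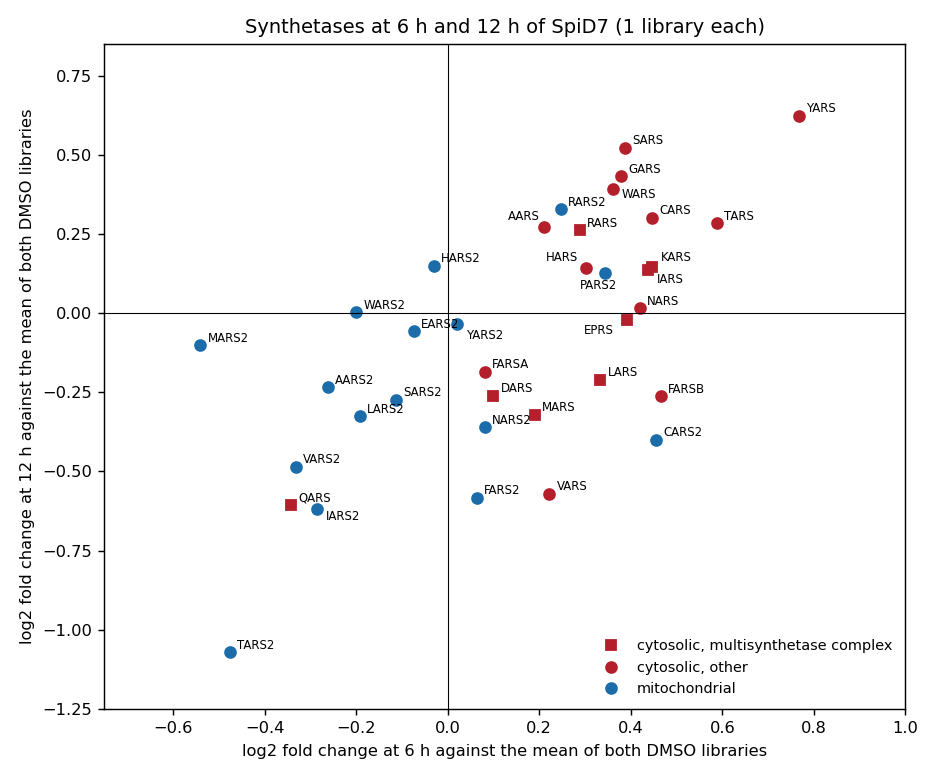
Log2 fold change of each synthetase at 6 h (horizontal) and 12 h (vertical) against the mean of both DMSO libraries, with 1 library per time and the same DMSO libraries on both axes. YARS is farthest up at 0.77 and 0.62, TARS2 farthest down at -0.48 and -1.07, and QARS is the only cytosolic gene left of 0.

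Set against its own mitochondrial partner, the cytosolic enzyme had a higher ratio of FPKM at 6 h than the mean of DMSO in 16 of 17 pairings, and at 12 h in 12. The pairings are not separate observations, since EPRS, which has the partners EARS2 and PARS2, and FARS2, the partner of FARSA and FARSB, each appear more than once. The ratio lay above both DMSO libraries in 12 pairings at 6 h and 10 at 12 h, and below both in 0 and 1. At 2 h it was above both in 5 and below in 1. Ratios of other gene pairs were not counted, so the counts of pairings have no background share beside them. The median log2 change of the ratio was 0.07 after 2 h, 0.47 after 6 h and 0.38 after 12 h. In the 13 pairings of symbols that differ only by the final 2 it was 0.09, 0.53 and 0.39, with 10 and 9 above both DMSO libraries at 6 h and 12 h.

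TARS to TARS2 had the highest change at both times. Its ratio stood at 4.85 and 3.93 under DMSO, 5.92 and 5.54 after 2 h of SpiD7, 9.16 after 6 h and 11.3 after 12 h. All SpiD7 libraries lay above both controls, with log2 changes of 0.39, 1.06 and 1.36. For YARS to YARS2 the DMSO ratios were 2.05 and 1.92, the 2 h ratios 2.09 and 2.25, the 6 h ratio 3.33 and the 12 h ratio 3.13. Its 4 SpiD7 libraries were likewise above both, though at 2 h by a small margin.

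For IARS to IARS2 they were 1.33 and 1.06 under DMSO, 1.58 and 1.19 after 2 h, 1.96 after 6 h and 2.01 after 12 h. SARS to SARS2 had ratios of 3.12 and 2.34 under DMSO, 2.41 and 2.69 after 2 h, 3.83 after 6 h and 4.70 after 12 h. In these pairings 2 h overlapped DMSO and the later libraries were higher. MARS to MARS2 differed: the ratio was 3.88 and 5.45 under DMSO, 5.77 and 9.50 after 2 h, 7.67 after 6 h and 3.95 after 12 h, and thus above both controls at 2 h and 6 h only. CARS to CARS2 was the only ratio not higher at 6 h (log2 change -0.01), and RARS to RARS2 stayed between the controls at 6 h and 12 h (0.04 and -0.07).

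**Figure D4:**
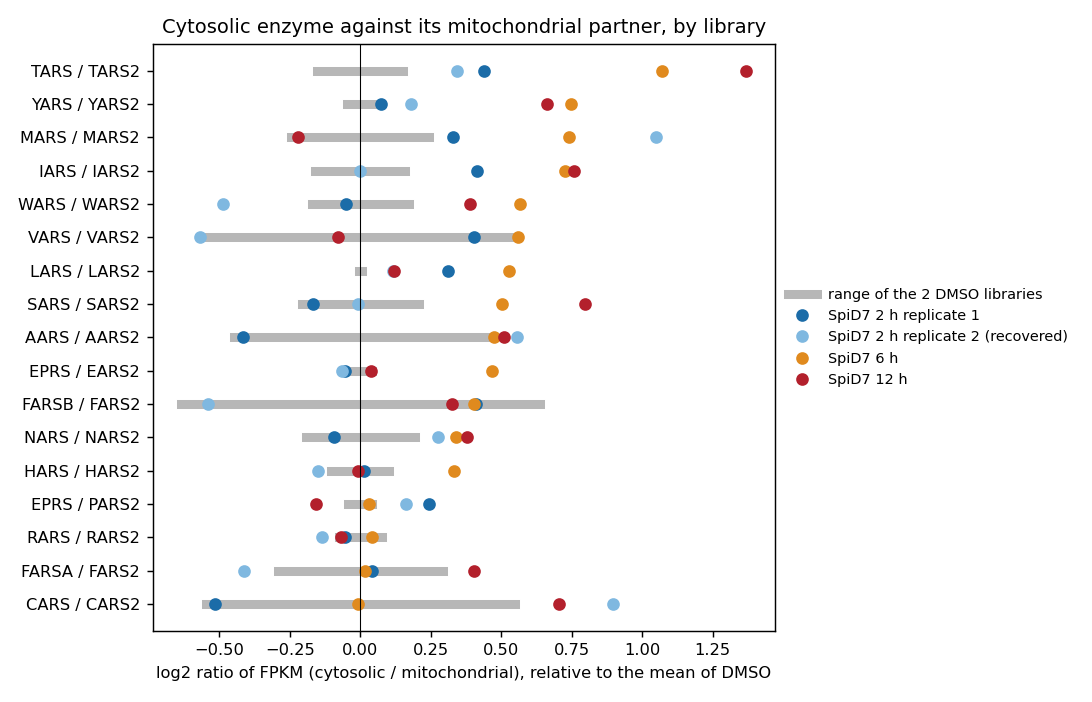
Log2 ratio of cytosolic to mitochondrial FPKM for 17 partner pairings, relative to the mean of DMSO; the grey bar spans both DMSO libraries and each point is 1 SpiD7 library. At 6 h 12 pairings, and at 12 h 10, lie right of the bar, with TARS to TARS2 at 1.06 and 1.36.

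The 8 members of the multisynthetase complex (EPRS, IARS, LARS, QARS, MARS, KARS, RARS, DARS) and the other 12 cytosolic genes had similar medians at 6 h, 0.31 and 0.38 on the log2 scale, and different ones at 12 h, -0.12 and 0.28. Of the complex, 7 lay above both DMSO libraries at 6 h (31.6% of all genes) and 1 (RARS) at 12 h (30.1% of all genes), when 3 lay below, a share of 37.5% near the 35.6% of all genes. Of the others, 9 were above at 6 h and 6 at 12 h, when 1 (VARS) was below. The difference between these groups at 12 h was not tested, because the genes are not replicates. By catalytic class, the 9 cytosolic class I genes had medians of 0.33 and 0.14 at 6 h and 12 h and the 10 class II genes 0.38 and 0.14, with EPRS, which holds both, left out. Without GARS and KARS the cytosolic medians were 0.35 and 0.08. Without the members whose exons overlap another protein-coding gene the cytosolic median at 12 h was 0.01, and the difference between cytosolic and mitochondrial medians at that time was 0.23 in place of 0.39.

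At 2 h, the only time with replicates, no synthetase passed the test. With limma on the 2 DMSO and 2 SpiD7 libraries, 0 of 36 members had an adjusted p-value under 0.05, and 0 an unadjusted one, against 0.0226% (3 genes) and 2.84% of all genes. In this fit, without a replicate block, the standard errors of the log2 fold changes were 0.16 to 0.65 with a median of 0.24. A difference as large as the cytosolic median at 6 h, 0.37, would be under 2 standard errors at that median. In the same fit MARS2 had the lowest p-value of the members, with a log2 fold change of -0.57 (SE 0.53) and an adjusted p of 1 by limma. With a replicate block the standard errors were 0.061 to 0.11 with a median of 0.072, and 0.37 would exceed 2 of them. That fit also called 0 of 36 members at an adjusted p-value under 0.05. The labels do not say that a replicate number marks a shared batch. A limma fit on all 6 libraries, in which the lone 6 h and 12 h libraries are assumed to vary like the replicated groups, called 0 of 36 members at either time, against 0.294% and 0.339% of all genes. In it 1 member had an unadjusted p-value under 0.05, TARS2 at 12 h (SE 0.30, adjusted p = 0.503 by limma), against 9.19% of all genes, and none at 6 h, against 5.55%.

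Of 33 other genes of tRNA charging and translation, 16 lay above both DMSO libraries at 6 h and 1 below, and 13 and 5 at 12 h. Among all genes, 31.6% lay above and 29.2% below at 6 h, and 30.1% and 35.6% at 12 h. The 3 scaffold genes of the complex were all above both controls at 6 h (median 0.24) and none at 12 h (-0.05), with AIMP1 at 0.08 and AIMP2 at -0.10 at 12 h. YRDC, which makes a threonine-dependent modification of tRNA, was the only one past 2-fold. It was at 14.5 and 14.6 FPKM in DMSO, 17.1 and 13.4 FPKM at 2 h, 31.4 FPKM at 6 h and 33.7 FPKM at 12 h, so that only the later libraries stood apart (1.11 and 1.21 on the log2 scale).

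In the same list of editing and synthetase-like genes, AARSD1, an editing protein for mischarged alanine tRNA, was lowest at 12 h (-0.26), and the list's median was 0.21 at 6 h and -0.08 at 12 h. For the mitochondrial amidotransferase and formylation genes (QRSL1, PET112, GATC, MTFMT), which complete glutamine and initiator tRNAs, the medians were 0.11 and 0.20, from QRSL1 at 0.01 to MTFMT at 0.21 at 12 h. Mitochondrial translation factors had medians of 0.28 and 0.08, from GFM1 (elongation, -0.37) to MTRF1L (release, 0.67) at 12 h. They thus did not share the negative medians of the mitochondrial synthetases, a difference that was not tested. Cytosolic elongation factors had medians of 0.18 and 0.13, from EEF1A1 at 0.01 to EEF1B2 at 0.42 at 12 h. The tRNA exporters had 0.33 and 0.02, with XPOT at 0.34 and XPO5 at -0.31, and the selenocysteine genes -0.08 and -0.24, with PSTK at 0.66 and EEFSEC at -0.64.

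ATF4 itself was at 153 and 202 FPKM in DMSO, 270 and 274 FPKM at 2 h, 343 FPKM at 6 h and 326 FPKM at 12 h. All SpiD7 libraries were above both controls, already at 2 h, when the synthetases were not. A list of 9 genes was set beside it: ATF4, DDIT3, ATF3, CEBPB, CEBPG, TRIB3, PPP1R15A, ASNS and SESN2. The list had a median of 0.63 (2 h), 2.20 (6 h) and 1.57 (12 h). Of the 9 genes, 7 lay above both DMSO libraries at 6 h and at 12 h, against 31.6% and 30.1% of all genes. Those past 2-fold at 6 h or 12 h were SESN2 (3.48 and 3.97), DDIT3, PPP1R15A (2.70 and 2.74), TRIB3 (2.20 and 2.77), ATF3 (2.41 and 1.57), ASNS (1.33 and 0.96) and CEBPG (1.11 and 0.95). ATF3 was at 1.06 and 99.4 FPKM in the DMSO libraries, so that its SpiD7 values lay between them, and the second DMSO library was also higher for DDIT3 (13.9 and 46.3 FPKM) and PPP1R15A (35.7 and 139 FPKM). The same library was lower for ASNS (29.1 and 13.4 FPKM), CEBPG (19.6 and 13.0 FPKM) and TRIB3 (12.9 and 11.1 FPKM). Against the first DMSO library alone, ASNS and CEBPG were under 2-fold at 6 h, at 0.77 and 0.82. The second DMSO library enters every fold change against the mean of DMSO. It was low for most cytosolic synthetases and high or low by gene in this list.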

How the data were processed

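RNA of OVCAR5 cells was sequenced as 50 bp single reads (TruSeq V2, strand not stated). Per the labels and the study's methods, the authors used Trim Galore, TopHat2 2.0.8, and Cufflinks and Cuffdiff 2.1.1. The methods name a mouse build and the processing notes list both GRCm38 and hg38, but the loci in the table are human (hg38). What the authors deposited is 1 FPKM value per gene and side for each of 4 comparisons, scaled separately. Columns of fold change, p-value and q-value from the authors' comparisons were not used. No column was without a sample or group (0). The methods state an approximate read number per sample, but the table holds no counts, and the values give depth only relative to the first DMSO library.

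The columns named for replicate 2 hold group means as far as the values show. Their ratio to the first library piled up at a share of 0.526 (DMSO, 809 rows) or 0.509 (2 h, 956 rows). No row above 0 in the first library was at 0 in these columns. Rows below the share were not counted. Replicate 2 was recovered, after the data were examined, as the mean divided by that share minus the first library, which assumes equal weights, and a remainder under 0.2% of the mean was set to 0. The 6 h and 12 h libraries were divided by 0.972 and 0.994, their scale relative to the shared first DMSO library. Rows of one symbol were summed (33085 rows; the members had 48, of which 12 on alternate scaffolds were at 0), log2(FPKM + 0.1) was used and genes averaging at least 1 FPKM over the libraries were kept.

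The 2 h libraries were tested by limma 3.58.1 (R 4.3.3, Benjamini-Hochberg adjustment), checked on simulated data, with Python 3.11.15, pandas 2.3.3 and numpy 2.4.6 for the rest. At 6 h and 12 h no test was the main result, and being above or below both DMSO libraries was counted. Gene coordinates are from GENCODE 29 (GRCh38) and promoter windows from RefSeq (GRCh38.p14), in which 16 of 20 cytosolic and 14 of 16 mitochondrial genes matched. Protein sequences were not used here. The members, lists and rules were chosen with earlier results of these data known. Values in every library were given for members more than 2-fold from DMSO, the 3 highest and 3 lowest of each class at 12 h, and GARS, KARS, EPRS, HARS and HARS2. Of related lists, the ends at 12 h, ATF4 and genes past 2-fold were named. Alternatives were a replicate block, pseudocounts, filters, scalings, the highest row per symbol, the means without recovery, and leaving out each replicate.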

Additional observations from a re-analysis of the deposited data

Results flagged for a closer look

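For 4 of 36 synthetases (11.1%), libraries of different exposure times lay on opposite sides of both DMSO libraries, beside 8.4% of all 13287 genes (1116), and in none of them was the difference between times tested. DARS was above both at 6 h and below both at 12 h, a log2 difference of 0.36 between the times. MARS had the same order, with a difference of 0.51, and FARS2 too, with 0.65. WARS was below both DMSO libraries in both 2 h libraries and above both at 6 h and at 12 h, with log2 differences of 0.46 and 0.49. Under median-ratio and upper-quartile scaling DARS and WARS kept these positions, MARS and FARS2 were no longer above both DMSO libraries at 6 h, and PARS2 lay below both at 2 h and above both at 6 h and 12 h. Each of the 6 h and 12 h values is from 1 library.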

How the results depend on the processing

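Medians and counts depended on which DMSO library was used. Leaving out each DMSO and 2 h replicate in turn, the cytosolic median log2 fold change ranged from -0.14 to 0.24 at 2 h, 0.14 to 0.53 at 6 h and -0.12 to 0.31 at 12 h, and the mitochondrial median from -0.23 to 0.11, -0.19 to 0.05 and -0.47 to -0.0049. The difference of the medians ranged from 0.064 to 0.17 at 2 h, 0.33 to 0.49 at 6 h and 0.31 to 0.39 at 12 h, and the log2 change of the ratio of sums from 0.029 to 0.10, 0.35 to 0.42 and 0.32 to 0.39. Members above every DMSO library kept numbered 19 to 29 at 6 h and 9 to 24 at 12 h. The higher counts (29 and 24) were without DMSO replicate 1. They are thus counts above DMSO replicate 2 alone, above which 7345 (6 h) and 6533 (12 h) of all 13287 genes also lay. Members without overlap at 2 h numbered 18 to 19, where fewer libraries make overlap rarer. The shares of all genes were not counted in these settings, so 18 to 19 have no background beside them. In each of these fits 0 to 0 members were called at 2 h. The labels give DMSO and 2 h libraries the same replicate numbers without saying that a number marks a shared batch. The second minus first differences of both groups had a correlation of 0.369 over 13287 genes. Of the 20 cytosolic genes, 17 were lower in the second library in DMSO and 17 at 2 h. Of the 16 mitochondrial genes it was 12 and 14. With the replicate block 0 members were called (lowest adjusted p 0.329 by limma, MARS2, SE 0.083), as with an intensity trend and with all 6 libraries in the fit. An unadjusted p-value under 0.05 by limma with the block was found for 1 member, MARS2, and for 1874 of 13287 genes. Over all genes limma called 3 at 2 h, 0 with the block, without a filter or without SpiD7 2 h replicate 1, 12 and 20 without DMSO replicate 1 and 2, and 21 without SpiD7 2 h replicate 2. Members without overlap at 2 h were 1, and 3 with median-ratio and 3 with upper-quartile scaling, all of them below DMSO. Of all genes, 13.7% lay above and 8.1% below both DMSO libraries at 2 h. The shares were 11.2% and 11.5% with median-ratio and 11.7% and 11% with upper-quartile scaling. Leaving out members that overlap another gene, added after seeing the data, moved the difference of medians at 12 h from 0.39 to 0.23, and the cause was not tested. CARS, KARS and NARS at 2 h, YARS2 at 6 h and 12 h and EPRS at 12 h had the other sign under another scaling, all from values within 0.04 of 0. PARS2 and WARS2 were left out by a filter of 5 FPKM. Neither scaling moved the median of all genes by as much as 0.1. Relative depth of 0.769 to 1.11 and values near 2 FPKM limit PARS2 most.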
